A study of Homo sapiens with 6 samples.

Results

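The cytochrome P450 genes of LM3 cells, a human hepatocellular carcinoma (HCC) line, were compared between cells with stable ZNF706 knockdown and vector control cells. They were taken by symbol, as the letters CYP followed by a family number, a subfamily letter and a gene number. CYP51A1, the sterol demethylase of cholesterol synthesis, was left out. This gave 40 genes of the 33007 in the deposited table. Of these, 20 had enough counts to be tested, among 18390 genes tested in all, and the other 20 are given by their counts. RNA-seq was performed on 3 control and 3 knockdown samples. Both groups were LM3 cells carried through lentiviral transduction and puromycin selection: the control cells received the vector and the knockdown cells a short hairpin RNA (shRNA) against ZNF706. Which of the study's ZNF706 shRNAs was sequenced is not given in the sources used here, nor whether the replicates were separate cultures, so the p-values measure only the spread between these samples. The libraries held 62684076 to 69057423 counts each.

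P450 enzymes are heme proteins that insert an oxygen atom into their substrates with electrons from a redox partner, POR in the endoplasmic reticulum and ferredoxin in mitochondria. Normal liver holds a large share of the body's drug-metabolising P450s, while other members make or break down steroid hormones, bile acids, vitamin D, retinoic acid and fatty acid derivatives. Hepatocytes tend to lose many of these enzymes when they dedifferentiate in tumours or in culture.

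ZNF706 itself was lower in the knockdown. Its CPM values (counts scaled to library sizes adjusted for composition by the TMM method) were 51.9, 55.1 and 54.7 in control replicates 1, 2 and 3 and 33.5, 30.8 and 32.8 in knockdown replicates 1, 2 and 3. Every knockdown sample lay below every control sample. Its log2 fold change was -0.73 (SE 0.050, edgeR adjusted p = 3.7e-05, from the quasi-likelihood test adjusted over all genes tested by the Benjamini-Hochberg method). ZNF706 RNA fell by 39.9%.

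The liver label was checked against hepatocyte markers. Of 10 such markers none was without counts, but their summed level was 15.0, 38.9 and 44.9 CPM in control replicates 1, 2 and 3 and 21.7, 22.5 and 9.1 CPM in knockdown replicates 1, 2 and 3. Albumin (ALB), the most abundant of them, averaged 2.17 FPKM (fragments scaled for gene length and depth) over the 6 samples, and the keratins KRT8 and KRT18 averaged 196.3 and 265.8 FPKM. The cells therefore carried KRT8 and KRT18 at a high level and hepatocyte secretory genes at a low level. Other epithelial markers were low too, with KRT19 at 0.663 FPKM, CDH1 at 0.375 FPKM and EPCAM at 0.178 FPKM. The 10 hepatocyte markers had log2 fold changes from -1.95 to -0.056, with a median of -0.78, while the median over all genes tested was 0.0095. SERPINA1 and APOB were the 2 of 10 called by edgeR, beside 22.8% of all genes tested (12.4% lower), and 3 had an unadjusted p below 0.05. Both were lower in the knockdown, at log2 fold changes of -1.47 (SE 0.26, edgeR adjusted p = 0.00336) and -0.98 (SE 0.25, edgeR adjusted p = 0.0205). The APOB call was lost without control replicate 2 or 3 or without knockdown replicate 1 or 3, at edgeR adjusted p-values of up to 0.0817. Of other cell types' markers, none of 5 epithelial ones was called by edgeR (3 at an unadjusted p below 0.05, 2 called by DESeq2). Every gene called by edgeR has an unadjusted p below 0.05, so at least 22.8% of all genes tested were below it. Of 5 fibroblast markers edgeR called COL1A1 and PDGFRB higher and DESeq2 called 3 in all, beside 22.8% of all genes called by edgeR (10.4% higher) and 26.8% by DESeq2. Over the fibroblast list the median log2 fold change was -0.039, and LUM was at -1.26, COL3A1 at -2.04 and DCN at -0.039, none of these called by edgeR. CD68 of 3 leukocyte markers was called higher, with CD14 at 0.69 and LYZ at -1.71, neither called, and CDH5 of 2 endothelial markers was called lower, with PECAM1 at 0.15 and not called. PTPRC, the pan-leukocyte marker, had at most 8 counts in a sample. The part of these marker changes in the P450 results was not tested, and in bulk samples fewer cells of a type and less RNA per cell cannot be told apart.

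Among the P450 genes, CYP1A1, CYP2S1 and CYP3A5 rose and CYP26B1 fell in the knockdown cells. These were 4 of the 20 tested P450 genes (20%), beside 22.8% of all genes tested. In the upward direction 3 of 20 (15%) were called, beside a background of 10.4%, and in the downward direction 1 of 20 (5%), beside 12.4%. The study's own criteria, taken here as an unadjusted p under 0.05 with a log2 fold change of 0.3 or more in size, were passed by the same 4 genes, beside 15.5% of all genes tested (9.61% upward and 5.88% downward). The share of P450 genes called was thus slightly below the background by adjusted p and slightly above it by the study's criteria, and 1 gene of 20 is 5%. Their median log2 fold change was -0.038, beside 0.0095 over all genes tested. With library size scaling in place of TMM these medians were 0.015 and 0.063.

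The share of genes called differed by depth over the whole table. Of all genes with a mean under 50 counts 1.99% were called, against 9.84% between 50 and 200 counts, 21.6% between 200 and 1000 and 37.5% above. Of the tested P450 genes, 8, 5, 6 and 1 fell in these classes, and 0, 1, 3 and 0 of them were called. In simulated libraries of the same depth, 67.7% of genes changed by 1 on the log2 scale and 49.5% of those changed by 0.6 were called, over genes of all depths. Only 200 genes were changed in that simulation, while 4192 were called in the data. The adjustment of p depends on how many genes change, so these shares need not hold for the data. A P450 gene that did not pass is not shown to be unchanged.

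P450 expression in these cells was uneven. CYP1B1, which oxidises estrogens and procarcinogens and is mainly known from tissues outside the liver, averaged 21.9 FPKM over the 6 samples. Next on this per-length scale were CYP26B1 at 2.56 FPKM, CYP11A1 at 2.49 FPKM and CYP2R1 at 2.34 FPKM, whose sample values lay close to each other. CYP1A1 followed at 0.788 FPKM. Only those first 4 genes averaged 1 FPKM or more, and 27 of the 40 averaged less than 0.1 FPKM. In knockdown samples alone CYP11A1 averaged 2.63, CYP2R1 2.41 and CYP26B1 2.29 FPKM, so the order of these genes depended on the group. Summed over the 40 genes, the level was 211 ± 11.2 CPM in control and 209 ± 8.37 CPM in knockdown samples (SD, n = 3 each), a difference smaller than the spread within either group. Without CYP1B1 the sums were 61.5 ± 5.55 and 60.3 ± 1.39 CPM. CYP1B1 took between 69.9% and 72.7% of all P450 counts in each of the 6 samples.

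**Figure D1:**
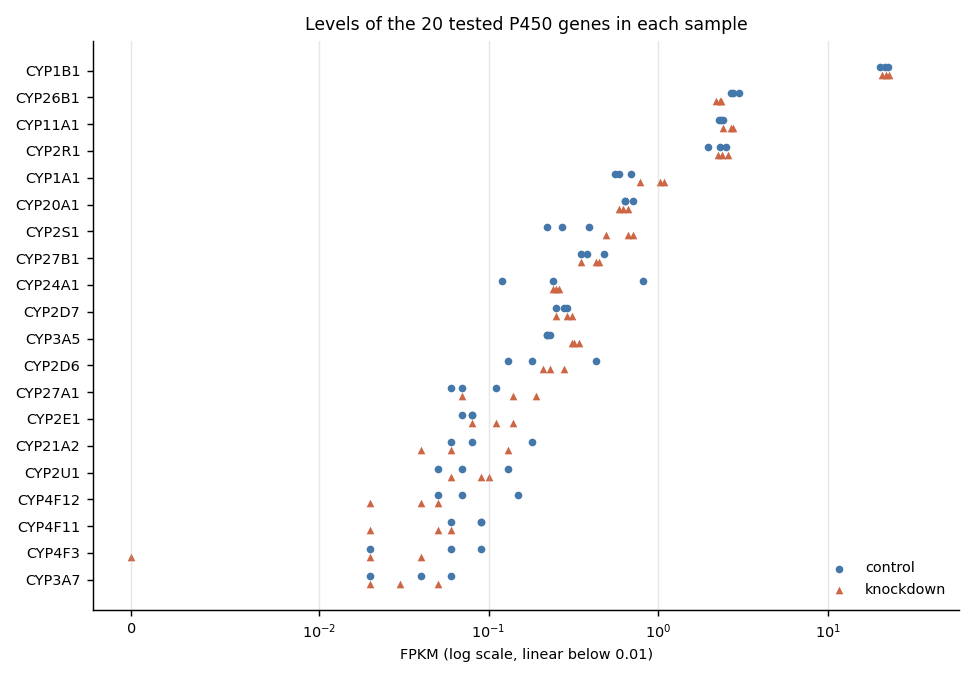
FPKM (log axis, linear below 0.01) of each of the 20 tested P450 genes, ordered by mean, with 1 blue circle per control sample and 1 orange triangle per knockdown sample. CYP1B1 lies far above the others at 20.3 to 23.2 FPKM in both groups, and the control and knockdown points separate for CYP26B1, CYP1A1, CYP2S1, CYP3A5 and, by a narrow margin, CYP11A1.

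The start regions of the genes that rose are shown for the receptor motifs close to their starts. Sequences were taken from RefSeq promoter windows on GRCh38.p14, from 250 bases before to 50 bases after each gene's start, and trimmed to bases outside the gene's span in the deposited table. They are printed 5′ to 3′ on the gene's strand, in lower case, with matches to the searched motifs in capitals.
CYP1A1: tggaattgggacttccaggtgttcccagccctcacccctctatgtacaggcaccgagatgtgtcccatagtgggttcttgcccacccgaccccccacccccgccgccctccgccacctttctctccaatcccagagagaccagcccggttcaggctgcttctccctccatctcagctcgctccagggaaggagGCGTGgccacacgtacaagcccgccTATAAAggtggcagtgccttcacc
CYP2S1: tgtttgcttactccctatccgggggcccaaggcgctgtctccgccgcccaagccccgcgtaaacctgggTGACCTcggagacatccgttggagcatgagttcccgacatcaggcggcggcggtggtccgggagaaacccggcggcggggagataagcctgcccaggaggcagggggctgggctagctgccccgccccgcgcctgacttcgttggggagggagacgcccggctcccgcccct
CYP3A5: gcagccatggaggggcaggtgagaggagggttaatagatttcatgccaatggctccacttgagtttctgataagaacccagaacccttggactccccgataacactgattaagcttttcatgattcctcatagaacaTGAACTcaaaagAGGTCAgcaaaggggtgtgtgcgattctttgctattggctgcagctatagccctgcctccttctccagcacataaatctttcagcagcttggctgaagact
The CYP1A1 sequence is chr15:74725537-74725778 on the minus strand, the CYP2S1 sequence chr19:41192969-41193209 on the plus strand and the CYP3A5 sequence chr7:99679997-99680246 on the minus strand. Positions are counted from the RefSeq start, which for CYP1A1 and CYP2S1 lies a few bases inside the gene's span in the deposited table. Both strands were searched. The core of the dioxin response element, where the aryl hydrocarbon receptor binds, was searched as GCGTG. The nuclear receptor half-site was searched as AGGTCA. The everted repeat, known as a site of the pregnane X receptor, holds half-sites that point away from each other around a 6-base spacer and was searched as TGAACTNNNNNNAGGTCA. The box near many start sites that recruits the transcription machinery was searched as TATAAA. The everted repeat contains the half-site, so each of its matches is also one of AGGTCA. In CYP1A1 the capitals mark GCGTG, beginning 57 bases before the start, and TATAAA, beginning 32 bases before it. In CYP2S1 they mark AGGTCA read on the other strand, 181 bases before the start. In CYP3A5 they mark the everted repeat, 113 bases before the start. Of all 35116 windows of that length, 36.5% held GCGTG, 13.8% held AGGTCA, 11.5% held TATAAA and 0.00854% held the everted repeat. The last share is 3 windows, those of CYP3A5, CYP3A4 and ITGB1BP2. The string searched for this repeat opens with TGAACT, which reads AGTTCA on the other strand and not AGGTCA. Only this spelling was searched, and other spellings of the repeat were not. Its low share depends on the letters chosen, so it does not show how common such repeats are or that CYP3A5 stands apart by having one. Of the 40 P450 genes 31 were matched, by 44 windows. Of these windows 10 held GCGTG, among them those of CYP11A1, CYP20A1 and CYP2U1, which were tested and not called. AGGTCA was in 13 windows, among them ones of CYP2E1, CYP3A7 and CYP21A2, also tested and not called, and TATAAA in 14, among them one of CYP26B1, which fell. A match describes the letters and not a bound site.

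Enzymes of foreign compounds made up the largest role, with 11 genes, of which 6 were tested, 2 rose and none fell by edgeR, beside edgeR shares of 10.4% and 12.4% over all genes tested. The other 4 had no unadjusted p below 0.05, and DESeq2 called the same 2 and gave no adjusted p for CYP3A7. CYP1A1 (ENSG00000140465, chr15:74719542-74725536), which oxidises polycyclic aromatic hydrocarbons and is the classic target of the aryl hydrocarbon receptor, was at 2.18, 2.71 and 2.33 CPM in control replicates 1, 2 and 3 and at 4.15, 3.85 and 2.96 CPM in knockdown replicates 1, 2 and 3. All knockdown samples lay above all control samples, and knockdown replicate 3 lay closest to the controls. This was a log2 fold change of 0.60 (SE 0.18, 95% interval 0.19 to 1.01, edgeR adjusted p = 0.0400), a 1.52-fold higher level. The call held without knockdown replicate 3 (0.73, edgeR adjusted p = 0.0247) and was lost when any one of the other 5 samples was left out, with adjusted p-values of up to 0.132 and log2 fold changes of 0.50 or more. With no filter on low counts it was also lost (edgeR adjusted p = 0.0967, limma adjusted p = 0.112), as it was with the replicate number as a block (edgeR adjusted p = 0.0514). Its paralog CYP1A2, the caffeine-oxidising enzyme of liver, had 8 counts in control replicate 1 and none in the other samples.

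CYP1B1, of the same family and also a target of the aryl hydrocarbon receptor, was at 156.5, 150.7 and 142.4 CPM in control and at 155.5, 148.1 and 141.2 CPM in knockdown replicates 1, 2 and 3. The groups overlapped almost fully. Its log2 fold change was -0.015 with a 95% interval of -0.12 to 0.091 (edgeR adjusted p = 0.862). Of the P450 genes it had by far the most counts, between 8743 and 10908 per sample, and its interval was the narrowest of the 20. Its exons overlap those of RMDN2 and CYP1B1-AS1 on the opposite strand, and the strand handling of the counting is not given in the sources used here.

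CYP3A5 (ENSG00000106258, chr7:99648194-99679996), a drug-oxidising enzyme of liver and gut, was at 2.44, 2.61 and 2.53 CPM in control and 3.45, 3.52 and 3.80 CPM in knockdown replicates 1, 2 and 3. The groups did not overlap, and both were tight, at 2.53 ± 0.0859 and 3.59 ± 0.186 CPM (SD, n = 3 each). The fitted log2 fold change was 0.51 (SE 0.15, 95% interval 0.18 to 0.84, edgeR adjusted p = 0.0338). With any one of the 6 samples left out the log2 fold change stayed between 0.46 and 0.53, but none of those fits passed the threshold, with adjusted p-values from 0.0629 to 0.102. The call was also lost with no filter on low counts (edgeR adjusted p = 0.0586) and with the replicate number as a block (edgeR adjusted p = 0.0573). It was lost too in the 3 limma fits on log2 FPKM, with adjusted p-values from 0.186 to 0.375 and a log2 fold change down to 0.11 at a pseudocount of 1. CYP3A7, the fetal liver form of the subfamily, had 7 to 16 counts per sample, with groups that overlapped (log2 fold change -0.37, edgeR adjusted p = 0.749). Its exons overlap the CYP3A7-CYP3A51P readthrough gene on the same strand, so reads of the pair may be split between them.

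The remaining tested enzymes of this role did not pass. CYP2E1, which oxidises ethanol and small solvents, was at 0.953, 0.755 and 0.880 CPM in control and 0.927, 1.506 and 1.200 CPM in knockdown replicates 1, 2 and 3, a log2 fold change of 0.49 (SE 0.28, edgeR adjusted p = 0.263). Knockdown replicate 1 lay within the control range and the other knockdown samples above it. CYP2D6, which metabolises many drugs, was at 0.388, 0.519 and 1.27 CPM in control and 0.585, 0.775 and 0.643 CPM in knockdown replicates 1, 2 and 3 (log2 fold change -0.12, SE 0.46, edgeR adjusted p = 0.889). Control replicate 3 stood above the other 5 samples, and without it the log2 fold change was 0.55 (edgeR adjusted p = 0.408). The 5 enzymes not tested, CYP1A2, CYP2A6, CYP2B6, CYP2C8 and CYP2C18, had at most 8 counts in a sample.

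**Figure D2:**
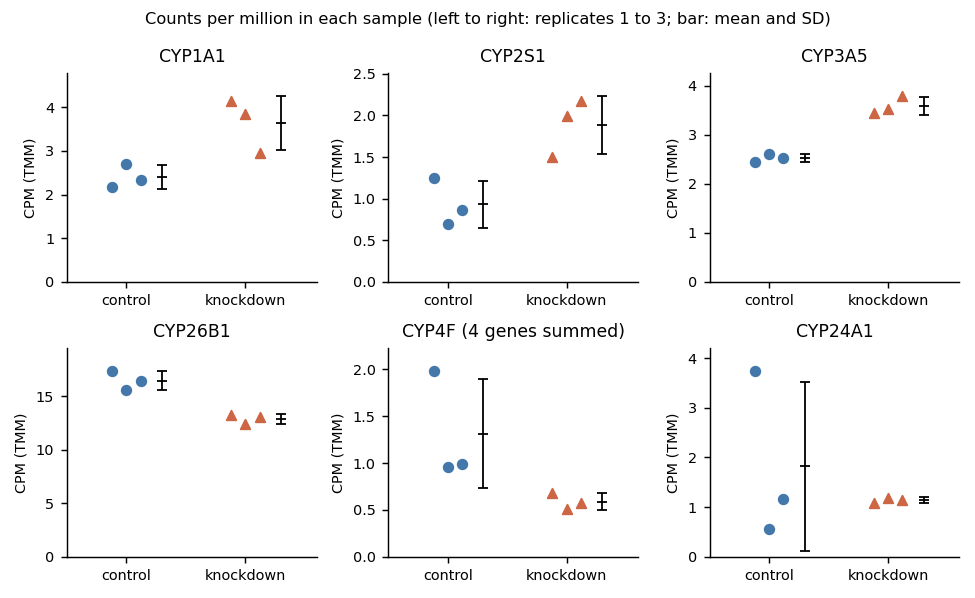
CPM in each sample for CYP1A1, CYP2S1, CYP3A5, CYP26B1, the summed CYP4F genes and CYP24A1, each on its own axis from 0, with control samples as blue circles, knockdown samples as orange triangles and the mean ± SD (n = 3) as a bar beside them. The groups separate in all panels but CYP24A1, where control replicate 1 at 3.75 CPM stands apart from the other 5 samples.

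CYP2S1 (ENSG00000167600, chr19:41193210-41207539), a dioxin-inducible enzyme of lung and gut epithelium, belonged to the 6 little-characterised P450s, of which 3 were tested. It was at 1.24, 0.692 and 0.863 CPM in control and 1.497, 1.998 and 2.17 CPM in knockdown replicates 1, 2 and 3. The lowest knockdown sample lay above the highest control sample. Its log2 fold change was 1.02 (SE 0.28, 95% interval 0.38 to 1.65, edgeR adjusted p = 0.0282), a 2.02-fold higher level, on 44 to 152 counts per sample. It was called without control replicate 1 (1.28, edgeR adjusted p = 0.0161) and without knockdown replicate 1. It was not called without control replicate 2, control replicate 3, knockdown replicate 2 or knockdown replicate 3, with log2 fold changes of 0.84 or more and adjusted p-values of up to 0.0895, nor with no filter on low values (edgeR adjusted p = 0.0778, limma adjusted p = 0.0934).

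CYP20A1, an orphan P450 with no settled substrate, was at 8.64, 7.96 and 8.03 CPM in control and 7.37, 7.05 and 7.90 CPM in knockdown replicates 1, 2 and 3. Its groups did not overlap on this scale, although they did in FPKM, and it did not pass the test (log2 fold change -0.14, SE 0.10, edgeR adjusted p = 0.373). With the 4 called genes it made 5 of 20 tested P450 genes whose groups did not overlap (25%), beside 39.4% of all genes tested (19.7% upward and 19.7% downward). CYP2D7, the neighbour and near-identical copy of CYP2D6, had a log2 fold change of -0.012 (SE 0.23, edgeR adjusted p = 0.980). Because reads can be shared between them, the split of counts between CYP2D6 and CYP2D7 is uncertain.

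CYP26B1 (ENSG00000003137, chr2:72129238-72148038), which clears retinoic acid, was the one P450 gene called lower. It was at 17.4, 15.6 and 16.4 CPM in control and 13.3, 12.4 and 13.0 CPM in knockdown replicates 1, 2 and 3. Every knockdown sample lay below every control sample. Its log2 fold change was -0.35 (SE 0.083, 95% interval -0.54 to -0.17, edgeR adjusted p = 0.0137), on 830 to 1076 counts per sample, and the level fell by 21.6%. It was called in 14 of 15 alternative fits. The exception left out knockdown replicate 2, where the log2 fold change was -0.32 and the edgeR adjusted p 0.0593. With library size scaling CYP26B1 was at -0.298, short of the fold change limit in the study's criteria. The other retinoid enzymes, CYP26A1, CYP26C1 and CYP27C1, were not tested. CYP26A1 had 9 counts in knockdown replicate 2 and none elsewhere, and CYP26C1 had no count in any sample.

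Retinoid handling genes outside the family were set beside CYP26B1. Of 12 genes with a row, 7 were tested and none was called by edgeR, beside 22.8% of all genes tested. An unadjusted p below 0.05 was found for 1, and DESeq2 called 1. That gene was STRA6, the cellular retinol-uptake receptor, at a log2 fold change of 0.22 (SE 0.082, edgeR adjusted p = 0.0856). ALDH1A1, which makes retinoic acid, was at 83.6, 3.30 and 19.0 CPM in control and 15.3, 14.9 and 0.0572 CPM in knockdown replicates 1, 2 and 3. The groups overlapped, and samples of each group differed widely (log2 fold change -1.81, SE 1.14, edgeR adjusted p = 0.307). The retinoic acid receptors RARA and RARG were both lower in the knockdown, at log2 fold changes of -0.22 (SE 0.058, edgeR adjusted p = 0.0211) and -0.18 (SE 0.051, edgeR adjusted p = 0.0303). Neither passed with library size scaling in place of TMM, where the values were -0.17 and -0.13. The RARA call was also lost without control replicate 3 or knockdown replicate 1 or 2 (edgeR adjusted p of up to 0.0668), and the RARG call without control replicate 3 or knockdown replicate 1 or 3 (up to 0.0987). The remaining retinoic acid receptor, RARB, had 0 to 30 counts per sample and was not called (log2 fold change -0.14, SE 1.09, edgeR adjusted p = 0.947).

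All 3 enzymes of vitamin D turnover were tested and none was called by edgeR or DESeq2, beside 22.8% and 26.8% of all genes tested. None had an unadjusted p below 0.05. CYP2R1, which carries out the hydroxylation of vitamin D that takes place in liver, was at 13.2, 10.3 and 12.3 CPM in control and 13.0, 12.1 and 11.6 CPM in knockdown replicates 1, 2 and 3, with a log2 fold change of 0.036 (95% interval -0.21 to 0.28, edgeR adjusted p = 0.859). CYP27B1, which makes the active hormone in kidney, had a log2 fold change of -0.0057 (95% interval -0.51 to 0.50, edgeR adjusted p = 0.990). It shares exon sequence on the same strand with METTL1, which had 923 to 1120 counts per sample against 84 to 114 for CYP27B1. CYP24A1, which degrades the active hormone and is induced by it, was at 3.75, 0.551 and 1.16 CPM in control and 1.08, 1.19 and 1.14 CPM in knockdown replicates 1, 2 and 3. Its knockdown samples lay within the control range, and control replicate 1 was far above the rest. Its log2 fold change of -0.67 (SE 0.55, edgeR adjusted p = 0.442) became 0.41 without that sample (edgeR adjusted p = 0.488).

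In the steroid hormone role 4 genes were in the table and 2 were tested. CYP11A1, the side-chain cleavage enzyme that starts steroid synthesis from cholesterol, was at 9.24, 9.49 and 9.09 CPM in control and 10.7, 9.20 and 10.3 CPM in knockdown replicates 1, 2 and 3. Knockdown replicate 2 lay among the controls and the others just above them, although in FPKM its groups did not overlap (up to 2.40 in control and from 2.41 in knockdown samples). Its log2 fold change was 0.12 (95% interval -0.0995 to 0.33, edgeR adjusted p = 0.444), and some of its exons overlap AC090826.1 and PPIAP46 on the opposite strand. CYP21A2, the adrenal hydroxylase, had 10 to 39 counts per sample (log2 fold change -0.52, SE 0.62, edgeR adjusted p = 0.605). Its exons overlap those of TNXB on the opposite strand, which had 654 to 1254 counts and was higher in the knockdown (log2 fold change 0.52, edgeR adjusted p = 0.00967), so without strand its reads cannot be told apart from those of TNXB. CYP17A1 and CYP19A1, which lead to androgens and estrogens, had at most 4 counts in a sample.

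Of the sterol and bile acid enzymes, CYP27A1, a mitochondrial sterol hydroxylase, was the only one tested among 4. It had 14 to 45 counts per sample and a log2 fold change of 0.66 (SE 0.52, edgeR adjusted p = 0.416), with overlapping groups. CYP7A1, the rate-limiting enzyme of bile acid synthesis, had 6 and 7 counts in knockdown replicates 1 and 3 and none in the other samples. CYP39A1 and CYP46A1 had at most 8 counts in a sample.

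The fatty acid and eicosanoid role held 8 genes, of which 4 were tested. None was called singly by edgeR, beside 22.8% of all genes tested. All 4 had a mean under 50 counts, and of all such genes 1.99% were called. None had an unadjusted p below 0.05. DESeq2 called neither CYP4F12 nor CYP2U1 and gave no adjusted p for CYP4F11 and CYP4F3. The CYP4F enzymes, omega-hydroxylases of fatty acids and leukotrienes, had few counts each: CYP4F12 had 10 to 54 per sample (log2 fold change -1.08, SE 0.56, edgeR adjusted p = 0.212), CYP4F11 6 to 28 (-0.92, SE 0.58, edgeR adjusted p = 0.305) and CYP4F3 0 to 37 (-1.43, SE 0.99, edgeR adjusted p = 0.355). CYP4F2 had 6 counts in control replicate 1 and none elsewhere. CYP2U1, another fatty acid hydroxylase, had a log2 fold change of -0.061 (SE 0.45, edgeR adjusted p = 0.946), which was 0.39 without control replicate 1.

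Because close paralogs can share or lose reads in the counting, the counts were also summed by subfamily, which gave 33 subfamilies, 5 of them with several genes in the table. In this fit 5 of the 16 tested subfamilies were called, 3 higher and 2 lower, beside 22.8% of all entries tested. CYP4F was called only as a sum: its 4 genes together had 123, 61 and 61 counts in control and 48, 34 and 40 counts in knockdown replicates 1, 2 and 3, or 1.99, 0.960 and 0.994 CPM against 0.684, 0.507 and 0.572 CPM. The groups did not overlap, and control replicate 1 stood well above the other controls. For the sum, the log2 fold change was -1.16 (SE 0.36, 95% interval -1.96 to -0.36, edgeR adjusted p = 0.0429). Without control replicate 1 it was -0.73 (edgeR adjusted p = 0.172), and it was also not called without knockdown replicate 1, knockdown replicate 2 or knockdown replicate 3, with library size scaling (-1.11, edgeR adjusted p = 0.0514) or with no filter on low counts (edgeR adjusted p = 0.103). The CYP3A sum, 2.71 ± 0.0132 CPM in control and 3.73 ± 0.236 CPM in knockdown samples (SD, n = 3 each), had a log2 fold change of 0.46 (SE 0.14, edgeR adjusted p = 0.0453), and the CYP1A sum one of 0.58 (SE 0.18, edgeR adjusted p = 0.0439). The CYP3A sum was called in 0 of 6 fits with 1 sample left out and the CYP1A sum in 1 of 6. The CYP2D sum was at -0.051 (SE 0.23, edgeR adjusted p = 0.910).

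**Figure D3:**
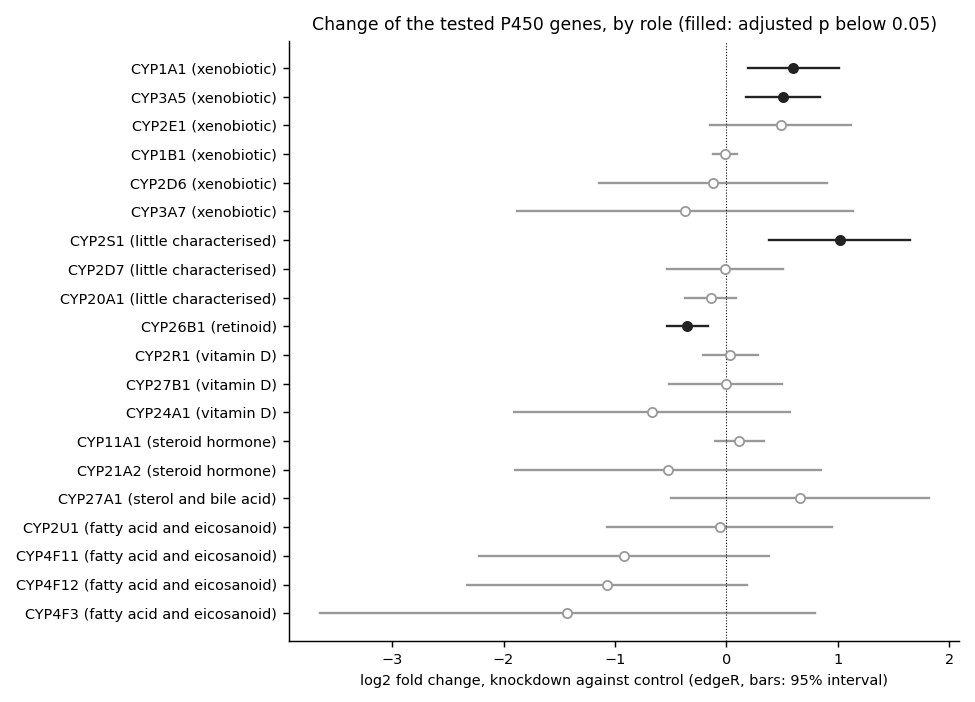
Log2 fold change (knockdown against control) of each tested P450 gene with its 95% interval from edgeR, grouped by role, with filled points where the adjusted p was below 0.05. CYP1A1, CYP3A5 and CYP2S1 lie above 0 and CYP26B1 below, and the intervals of the little-expressed CYP4F genes are wide.

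Among the 20 genes not tested, no sample held more than 26 counts of any, which was CYP2W1 in knockdown replicate 1. Of these, 15 had a count in some control sample and 12 in some knockdown sample, and 3 never exceeded 3 counts in a sample. CYP2J2, an epoxygenase of arachidonic acid, had 7, 6 and 6 counts in control and 4, 4 and 0 counts in knockdown replicates 1, 2 and 3, the only one of the 20 whose groups did not overlap. CYP4V2, a fatty acid hydroxylase, had 0 to 7 counts. These genes were not tested, and their counts are too few to compare the groups.

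Libraries of a group differed from each other in the P450 counts. On the CPM scale, control replicate 1 was the highest control sample for 14 of the 20 tested genes, against 4 for replicate 2 and 2 for replicate 3. It was also the highest control for ALDH1A1 and for ALDH3A1, an aldehyde dehydrogenase (34.8 CPM against 4.58 and 8.42 CPM in control replicates 2 and 3), and the lowest for ALB (3.05 CPM against 14.1 and 14.4 CPM). Knockdown replicate 3 was likewise the lowest of its group for ALB (1.97 CPM against 8.37 and 9.47 CPM) and for ALDH1A1, and its distance from knockdown replicate 1 was the largest within a group (chi-square per gene 22.2, against 12.8 to 15.5 for the other pairs). The part that these library differences took in the P450 results was not tested, other than by leaving samples out. Without control replicate 1 CYP26B1 and CYP2S1 were called and CYP1A1, CYP3A5 and the CYP4F sum were not. Without knockdown replicate 3 CYP26B1 and CYP1A1 were called and CYP2S1, CYP3A5 and the CYP4F sum were not.

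The genes that act with P450s were read from lists. Of 76 different genes tested in them, cell type markers not counted, edgeR called 15 (19.7%), beside 22.8% of all genes tested. Over all genes DESeq2 called 26.8%, and at least 22.8% had an unadjusted p below 0.05. Each of the 15 kept its direction with library size scaling, with DESeq2 size factors and with DESeq2, while 11 of them passed with library size scaling. Of the 8 redox partners CYB5B, a cytochrome b5 of the outer mitochondrial membrane, was the only one edgeR called, while 4 had an unadjusted p below 0.05 and DESeq2 called 4. CYB5B was at 120.9 ± 3.81 CPM in control and 104.0 ± 3.11 CPM in knockdown samples (SD, n = 3 each, log2 fold change -0.22, SE 0.039, edgeR adjusted p = 0.0036). POR, the electron donor of microsomal P450s, had a log2 fold change of 0.081 (SE 0.050, edgeR adjusted p = 0.296). Of 12 heme synthesis and breakdown genes edgeR called none, 2 had an unadjusted p below 0.05 and DESeq2 called 1.

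Of 20 regulators tested, edgeR called 1 higher and 3 lower, beside 10.4% and 12.4% of all genes tested, and 8 had an unadjusted p below 0.05. The share of all genes below that p was not computed and is at least 22.8%. DESeq2 called 4, beside 26.8% of all genes tested. NR0B2, a repressor of bile acid synthesis, had 3 to 31 counts per sample and did not pass, with groups that did not overlap (log2 fold change -2.15, SE 0.70, edgeR adjusted p = 0.0526). AHR, the aryl hydrocarbon receptor itself, was at 42.8, 38.9 and 42.4 CPM in control and 36.8, 33.3 and 32.4 CPM in knockdown replicates 1, 2 and 3. It was lower in every knockdown sample than in every control sample, at a log2 fold change of -0.27 (SE 0.064, edgeR adjusted p = 0.0128) and was not called without knockdown replicate 2 (edgeR adjusted p = 0.0572). NR1H3, the oxysterol receptor LXR-alpha, was higher at 0.31 (SE 0.062, edgeR adjusted p = 0.00612). The others that fell were RARA and RARG, given above. NR1I2, the pregnane X receptor, had at most 8 counts in a sample and was not tested. Of the 7 other aryl hydrocarbon receptor targets tested, edgeR called 1 higher and 1 lower, beside 10.4% and 12.4% of all genes tested. In this list 3 had an unadjusted p below 0.05 and DESeq2 called 3. TIPARP, which feeds back on the receptor, was higher (log2 fold change 0.15, SE 0.038, edgeR adjusted p = 0.0177). NQO1, a quinone reductase, was lower (-0.19, SE 0.049, edgeR adjusted p = 0.0212). Not called by edgeR were ALDH3A1 at -0.82, UGT1A6 at -0.56, NFE2L2 at -0.12, AHRR at 0.028 and SLC7A5 at 0.044. TIPARP passed with library size scaling and NQO1 did not. The TIPARP call was lost without control replicate 2 or 3 or knockdown replicate 2 (edgeR adjusted p of up to 0.0715), and the NQO1 call without control replicate 1 or 3 or knockdown replicate 1 or 2 (up to 0.0820). Thus CYP1A1, TIPARP and the dioxin-inducible CYP2S1 were called higher and AHR and NQO1 lower in the same samples. CYP1B1 was nearly level, and the other listed targets that were tested were not called by edgeR.

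Of the 10 tested vitamin D and bile acid partners, 3 rose and 1 fell, beside 10.4% and 12.4% of all genes tested. HSD3B7, a dehydrogenase of bile acid synthesis, was at 24.7 ± 0.773 CPM in control and 35.9 ± 1.78 CPM in knockdown samples (SD, n = 3 each), a log2 fold change of 0.54 (SE 0.062, edgeR adjusted p = 0.000363). SLC27A5, the bile acid CoA ligase, was higher by 0.63 (SE 0.12, edgeR adjusted p = 0.00395) and DHCR7, which consumes the precursor of vitamin D, by 0.39 (SE 0.043, edgeR adjusted p = 0.000297). HSD17B4, the peroxisomal multifunctional enzyme, fell by 0.16 on the log2 scale (SE 0.037, edgeR adjusted p = 0.0148) and did not pass with library size scaling, without control replicate 2 or without knockdown replicate 2 (edgeR adjusted p of up to 0.0555 with 1 sample left out). Each of the first 3 was called in all 6 fits with 1 sample left out. Of 6 steroid synthesis partners tested, SRD5A1, a steroid reductase, was higher at 0.18 (SE 0.037, edgeR adjusted p = 0.00638) and HSD17B12, a reductase of fatty acid elongation, lower at -0.17 (SE 0.031, edgeR adjusted p = 0.00367).

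Among epoxide hydrolases, flavin monooxygenases and related enzymes of foreign compounds, AOX1 rose and EPHX1 fell. AOX1, aldehyde oxidase, was at 2.36, 1.79 and 2.09 CPM in control and 4.78, 4.32 and 3.89 CPM in knockdown replicates 1, 2 and 3, with no overlap and a log2 fold change of 1.06 (SE 0.17, edgeR adjusted p = 0.00195). EPHX1, the microsomal epoxide hydrolase that acts on products of P450s, was at 35.9, 33.9 and 39.1 CPM in control and 24.8, 24.0 and 25.6 CPM in knockdown replicates 1, 2 and 3, also with no overlap and a log2 fold change of -0.55 (SE 0.067, edgeR adjusted p = 0.000517). These were the 2 that edgeR called of 8 tested in that list, beside 22.8% of all genes tested, and both were called in all 6 edgeR fits with 1 sample left out. DESeq2 called 3, and 3 had an unadjusted p below 0.05 in edgeR, beside 26.8% and at least 22.8% of all genes tested. CYP51A1, outside the rule, had a log2 fold change of 0.045 (SE 0.048, edgeR adjusted p = 0.566).

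**Figure D4:**
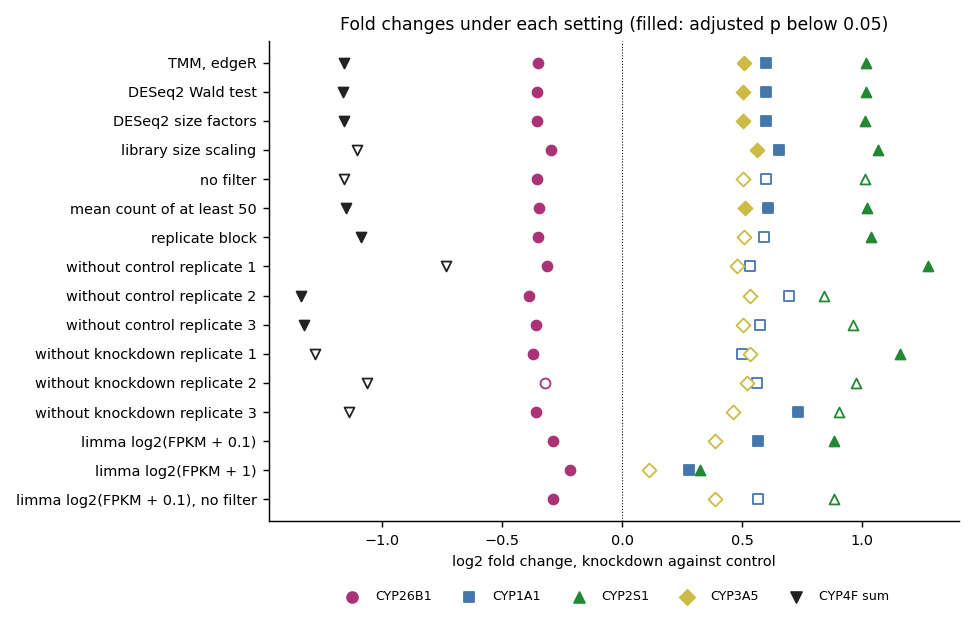
Log2 fold change (knockdown against control) of the 4 called P450 genes and of the CYP4F sum under each processing setting, named on the vertical axis, with filled symbols where the adjusted p was below 0.05. CYP26B1 is filled in all settings but one, CYP3A5 is open in every fit that leaves out 1 sample, and none of the symbols crosses 0. The CYP4F sum has no limma values.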

How the data were processed

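Gene-level read counts and FPKM of 3 control and 3 knockdown LM3 samples were deposited by the authors in 1 table. Reads were trimmed with cutadapt (1.9) and checked with FastQC per the labels, on GRCh38, and aligned with HISAT2 by the authors. The counting program, strand handling and annotation release are not given in the sources used here. Of 32092 genes shared with GENCODE 29, 99.98% overlapped their position there. Low counts were uneven: the deposited counts listed the value 4 in 6594 cells and 3 in 4454, so a low count may not be 1 fragment.

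Raw counts were analysed in R (4.3.3) with edgeR (4.0.16): filterByExpr, TMM scaling, glmQLFit and glmQLFTest on group, and Benjamini-Hochberg adjustment over the 18390 genes tested, at a threshold of 0.05. With 3 against 3 samples an exact permutation test of 1 gene cannot go below p = 0.1. Subfamily sums replaced their members in a separate fit. Alternatives were DESeq2 (1.42.0), its size factors, library size scaling, other filters, the replicate number as a block, each sample left out, and limma (3.58.1) on log2(FPKM + 0.1) and log2(FPKM + 1) of the deposited FPKM. A log2 fold change on that scale understates the change of low genes. In simulated data 15 of 17662 unchanged genes were called, beside 65 right calls at a log2 change of 1 and 47 at 0.6. False calls thus took a larger share of those calls than the threshold of 0.05. No pair of libraries agreed within sampling noise (chi-square per gene 12.8 or more). In full are named ZNF706, the called P450 genes, their paralogs and the 5 with the highest mean FPKM. From each other list up to 4 called genes are named. STRA6, ALDH1A1, ALDH3A1, POR, NR1I2, CYP51A1, TNXB, NR0B2, LUM, COL3A1, DCN, CD14, LYZ, PECAM1 and the low genes were chosen after their values were seen. So were RARB, KRT19, CDH1, EPCAM, NFE2L2, UGT1A6, AHRR and SLC7A5. Members and lists were chosen with earlier results of these data known.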

Additional observations from a re-analysis of the deposited data

How the results depend on the processing

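CYP26B1 was called in 14 of 15 alternatives, CYP2S1 in 9, CYP1A1 in 7 and CYP3A5 in 4, and the CYP4F sum in 6 of 12, and none of them reversed. The 3 P450 genes called higher became 0 with no filter, 1 with the replicate block, 0 with limma without a filter and 0 to 1 with 1 sample left out. The 1 called lower was 0 to 1 with 1 sample left out. The 4 by the study criteria were 2, 1 and 2 with limma at a pseudocount of 0.1, of 1 and without a filter, and 4 to 6 with 1 sample left out. They were 3 with library size scaling, where CYP26B1, at -0.298, fell short of the study's fold change limit. The 5 called subfamilies became 1 with no filter, 3 with the replicate block and 0 to 2 with 1 sample left out. With no filter 31319 genes were tested and 9.55% called, and with 1 sample left out 14.9% to 19.1% were called, so fewer calls were made over all genes too. Same-numbered samples did not deviate together (correlations of 0.027, -0.028 and 0.029), so these correlations showed no pairing by number. Whether same-numbered samples were prepared together is not given in the sources used here. The replicate block raised the calls over all genes from 4192 to 4361. With it CYP1A1, CYP3A5 and the CYP1A and CYP3A sums were not called (adjusted p of 0.0514, 0.0573, 0.0531 and 0.0730 by edgeR). The median log2 fold change of the P450 genes was -0.12 with no filter, 0.063 and 0.032 with limma at the lower and higher pseudocount, and -0.11 to 0.064 with 1 sample left out.

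Some genes that were not called changed sign. With library size scaling, which moved the median of all genes to 0.063, CYP1B1 was at 0.038, CYP27B1 at 0.048, CYP2D7 at 0.042 and the CYP2D sum at 0.0048. With limma at the lower pseudocount, with and without a filter, CYP1B1 was at 0.033, CYP27B1 at 0.022, CYP2D6 at 0.063 and CYP2D7 at 0.037, and CYP2U1 at 0.017 without a filter. At the higher pseudocount CYP1B1 was at 0.032, CYP27B1 at 0.0073 and CYP2D7 at 0.011. With the replicate block CYP2D6 was at 0.050 and CYP2U1 at 0.021. With 1 sample left out the ranges were -0.053 to 0.019 for CYP1B1, -0.091 to 0.13 for CYP27B1, -0.42 to 0.55 for CYP2D6, -0.086 to 0.078 for CYP2D7, -0.36 to 0.39 for CYP2U1, -0.058 to 0.11 for CYP2R1, -1.10 to 0.018 for CYP21A2 and -1.10 to 0.41 for CYP24A1, both above 0 without control replicate 1, and -0.21 to 0.18 for the CYP2D sum. The cause of these changes was not tested. Among all genes tested with a mean under 50 counts 1.99% were called.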
